A study of Homo sapiens with 6 samples.

Results

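The apolipoprotein genes described here are 10 protein-coding genes, APOA1, APOA2, APOA4, APOB, APOC1, APOC2, APOC3, APOE, APOH and APOM, taken from the gene table by symbol. Each symbol matched a single row, so they are 10 of the 58735 genes of the table, and 9 of them were among the 13074 genes that had at least 1 FPKM in at least 3 libraries and were tested. RNA was sequenced from 6 libraries of Hep-G2, a line derived from a human liver tumor. In 3 libraries, named sh-CLGN, the cells carried a short hairpin directed at CLGN, the gene of the endoplasmic reticulum chaperone calmegin, and in 3, named sh-NC, a negative-control hairpin. Both hairpins were brought in with a lentivirus under puromycin selection, the labels give the genotype of sh-NC as wild type and that of sh-CLGN as a knock-down of CLGN, and all libraries share 1 batch label. Each group rests on a single hairpin, so an effect of CLGN loss and an effect of that hairpin cannot be told apart. The labels name no separate cultures, and the p-values therefore measure the spread between libraries, which may be technical.

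Apolipoproteins are the protein coat of the particles that carry lipid in plasma. APOB is the scaffold of the very-low-density and low-density lipoproteins that hepatocytes secrete, and it stays with its particle for life. The others are small proteins that move between particles, form high-density lipoprotein, or steer the enzymes and receptors that unload lipid. The liver makes most of them, the intestine shares APOA1, APOA4 and APOB, and macrophages also make APOE and APOC1. All of these proteins enter the endoplasmic reticulum on the way out of the cell.

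Several of the genes lie side by side. On GRCh38, APOA4 (chr11:116820700-116823306), APOC3 (chr11:116829706-116833072) and APOA1 (chr11:116835751-116837950) form a cluster on chromosome 11, with APOC3 on the plus strand and the others on the minus strand. APOE (chr19:44905754-44909393), APOC1 (chr19:44914247-44919349) and APOC2 (chr19:44945982-44949565) follow each other on the plus strand of chromosome 19. The remaining genes stand alone, namely APOA2 (chr1:161222292-161223631, minus strand), APOB (chr2:21001429-21044073, minus strand), APOH (chr17:66212033-66256525, minus strand) and APOM (chr6:31652416-31658210, plus strand).

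The promoters of APOA4 and APOE, which rose, and of APOM and APOH, which fell, are shown to place the expression values beside their sequence. RefSeq windows on GRCh38.p14, from 250 bases before to 50 bases after an annotated start, were at hand for 7 of the genes, in 9 windows. They lie at chr11:116823255-116823554 (minus strand) for APOA4, chr19:44905546-44905845 (plus strand, the most upstream of 3 APOE starts), chr6:31655644-31655943 (plus strand) for APOM and chr17:66229366-66229665 (minus strand) for APOH. Each is written 5′ to 3′ along the gene, and capitals mark matches to 6 motifs searched on both strands, which were the nuclear receptor motif AGGTCA, the HNF4 motif CAAAGTCCA, the motif GTTAAT, the TATA box TATAAA, the GC box GGGCGG and the CCAAT box CCAAT.
APOA4: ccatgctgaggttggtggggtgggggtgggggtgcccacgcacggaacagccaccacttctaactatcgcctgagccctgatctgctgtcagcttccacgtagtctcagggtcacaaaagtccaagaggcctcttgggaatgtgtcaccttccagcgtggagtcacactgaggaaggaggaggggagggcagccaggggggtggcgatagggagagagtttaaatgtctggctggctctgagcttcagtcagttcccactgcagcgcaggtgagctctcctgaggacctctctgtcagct
APOE: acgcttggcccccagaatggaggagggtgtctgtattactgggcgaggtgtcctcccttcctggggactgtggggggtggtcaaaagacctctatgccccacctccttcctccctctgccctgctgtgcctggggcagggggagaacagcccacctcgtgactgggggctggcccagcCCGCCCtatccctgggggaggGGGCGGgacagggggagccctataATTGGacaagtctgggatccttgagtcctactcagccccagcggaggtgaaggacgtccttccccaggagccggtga
APOM: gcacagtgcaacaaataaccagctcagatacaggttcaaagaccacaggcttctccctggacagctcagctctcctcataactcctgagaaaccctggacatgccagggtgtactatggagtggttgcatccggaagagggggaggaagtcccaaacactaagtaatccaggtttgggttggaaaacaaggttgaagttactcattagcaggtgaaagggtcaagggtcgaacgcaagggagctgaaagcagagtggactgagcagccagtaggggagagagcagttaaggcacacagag
APOH: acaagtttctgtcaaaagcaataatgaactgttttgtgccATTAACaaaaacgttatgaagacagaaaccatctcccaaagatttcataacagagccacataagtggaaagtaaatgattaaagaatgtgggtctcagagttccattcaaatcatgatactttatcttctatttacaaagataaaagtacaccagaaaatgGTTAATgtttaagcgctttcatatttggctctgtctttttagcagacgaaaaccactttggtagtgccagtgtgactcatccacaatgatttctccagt
Counting the base before the start as -1, the APOE window held a GC box at -72 to -67 on the minus strand, another at -51 to -46 on the plus strand, and a CCAAT box at -27 to -23 on the minus strand. The APOH window held GTTAAT at -210 to -205 on the minus strand and at -49 to -44 on the plus strand. The APOA4 and APOM windows, and that of APOA2, held none of the 6 motifs in these exact letters. Among the other windows, the most downstream of APOE held a CCAAT box at -202 to -198 on the minus strand, that of APOC1 held a GC box, and that of APOC2 an AGGTCA and a TATA box. Of 35116 windows of the same length, 13.8% held AGGTCA, 0.384% CAAAGTCCA, 6.88% GTTAAT, 11.5% TATAAA, 45.0% GGGCGG and 34.6% CCAAT, so a GC box or CCAAT box is a common match.

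Levels are given as FPKM, fragments scaled to gene length and to a factor of each library, which allows genes to be compared. Libraries held 14955816 to 16244639 reads in the gene table, and the tested apolipoprotein genes had between 67 and 71922 reads in a library. CLGN itself fell from 23.8 ± 2.54 to 8.98 ± 0.453 FPKM (SD, n = 3 each; log2 change -1.31, adjusted p = 8.35e-06). Changes are sh-CLGN minus sh-NC on the log2(FPKM + 1) scale, with p-values from limma adjusted by the Benjamini-Hochberg method over all genes tested. A gene that passed an adjusted p of 0.05 is said to have risen or fallen, and one that also changed by at least 1 log2 unit is said to be called. A gene under 1 FPKM in every library of 1 group could enter the test only through the other group, so the filter fixed its direction. Mitochondrial genes took 3.25% to 4.02% of reads in sh-NC against 5.49% to 5.80% in sh-CLGN, and the part of this in the results was not tested.

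With sh-CLGN, 4 of the 9 tested genes rose (APOA4, APOE, APOA2 and APOC1), 3 fell (APOM, APOB and APOH), and APOA1 and APOC3 did not pass. Among all genes tested, 26.7% rose and 39.0% fell. No apolipoprotein gene was called in either direction, against 3.09% of all genes called higher and 3.19% called lower. At an unadjusted p under 0.05 there were also 4 higher and 3 lower, against 28.3% and 40.8% of all genes. Voom on the reads recovered from the FPKM called 1, APOA4, where it called 7.56% of all genes higher and 5.61% lower. All 3 sh-CLGN libraries lay above all 3 sh-NC libraries for 4 genes (APOA1, APOA2, APOA4 and APOE) and below for 3 (APOB, APOH and APOM), beside 28.7% and 41.5% of all genes. The median log2 change was 0.15 over the tested apolipoprotein genes and -0.077 over all genes tested.

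**Figure D1:**
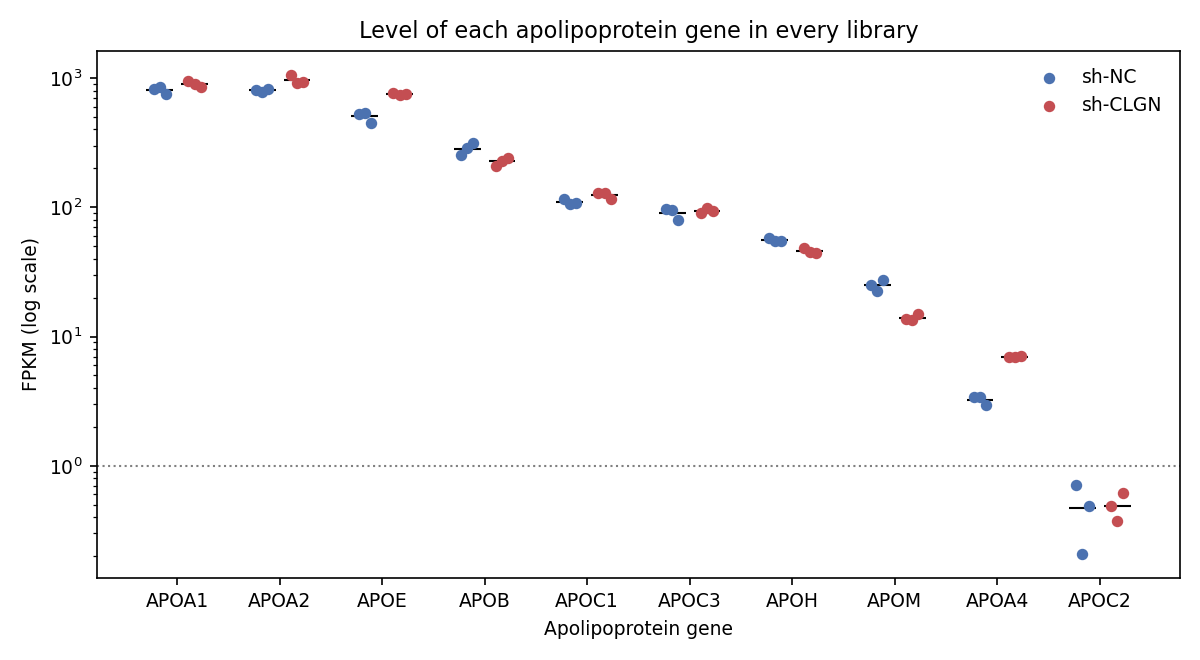
FPKM of the 10 apolipoprotein genes on a log axis, with a point for each of the 3 sh-NC (blue) and 3 sh-CLGN (red) libraries, bars at the means and a dotted line at 1 FPKM. The genes span from APOA1 and APOA2 (759 to 1061 FPKM) down to APOC2 under 1 FPKM, and the groups separate clearly for APOE, APOM and APOA4.

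The order of the levels was nearly the same in all libraries. From high to low it ran APOA1 and APOA2, APOE, APOB, APOC1, APOC3, APOH, APOM, APOA4 and APOC2. Only APOA1 and APOA2 overlapped within a group, with APOA1 the higher in 2 of 3 sh-NC libraries and APOA2 the higher in 3 of 3 sh-CLGN libraries. Every other pair of neighbours kept its order in each library, with ranges that did not overlap within a group. APOA2 and APOA1 ranked 26 and 27 by mean FPKM among all genes of the table, APOE 35 and APOB 100. Some distances in the order changed: mean APOE was 1.78 times mean APOB in sh-NC against 3.31 times in sh-CLGN, and mean APOM was 7.67 times mean APOA4 in sh-NC against 1.998 times in sh-CLGN.

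The proteins of high-density lipoprotein moved in different directions. APOA1, its main structural protein and the activator of the cholesterol-esterifying enzyme LCAT, measured 827, 849 and 759 FPKM with sh-NC and 954, 892 and 854 FPKM with sh-CLGN. The sh-CLGN libraries were all higher, by a narrow margin, and the change of 0.15 (SE 0.066, 95% interval -0.0037 to 0.30) did not pass (adjusted p = 0.0781). It passed in 5 of 12 alternatives, with 0.28 for TPM, 0.31 for quantile normalization, 0.34 for read totals, 0.43 with the GC trend removed (adjusted p = 0.000662) and 0.15 with voom (adjusted p = 0.0245). APOA2, the next most abundant protein of these particles, measured 806, 786 and 826 FPKM with sh-NC and 1061, 911 and 935 FPKM with sh-CLGN. Its groups did not overlap, and it rose by 0.26 (SE 0.068, adjusted p = 0.00993). The rise passed in 11 of 12 alternatives, reaching 0.47 with the GC trend removed, and missed without the filter (adjusted p = 0.0959).

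APOM, a lipocalin that carries sphingosine-1-phosphate on high-density lipoprotein, showed the largest fall. It measured 25.0, 22.5 and 27.2 FPKM with sh-NC and 13.6, 13.3 and 14.8 FPKM with sh-CLGN, so that every sh-CLGN library was well below every sh-NC library. Mean APOM went from 24.9 ± 2.32 down to 13.9 ± 0.815 FPKM (SD, n = 3 each), which is 55.9% of control, with a log2 change of -0.79 (SE 0.076, 95% interval -0.97 to -0.62, adjusted p = 6.09e-05). The unscaled reads were also apart, with 546 to 698 in sh-NC against 363 to 398 in sh-CLGN. Of the APOM exon bases, 8.2% overlap BAG6, a chaperone gene on the opposite strand that fell by 0.45 on the log2 scale (adjusted p = 0.000322), and reads there cannot be assigned without knowledge of strand.

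APOA4, which in the body is made mainly by the intestine and travels on chylomicrons and high-density lipoprotein, was a minor transcript with the largest rise. It measured 3.41, 3.39 and 2.94 FPKM with sh-NC and 6.92, 6.92 and 7.06 FPKM with sh-CLGN, from 67 to 73 and from 167 to 173 reads. The libraries of each group lay close together and the groups far apart. The mean was 3.25 ± 0.266 in sh-NC against 6.97 ± 0.0835 in sh-CLGN (SD, n = 3 each), a ratio of 2.15, with a log2 change of 0.91 (SE 0.066, 95% interval 0.76 to 1.06, adjusted p = 1.60e-05). On the log2(FPKM + 1) scale the 1 added to each value shrinks this change below the log2 unit needed for a call. Overlap with the antisense gene AP006216.3 takes in 43.1% of the APOA4 exon bases, and that gene had 0 reads in all 6 libraries. Without knowledge of strand, these 0 reads cannot show how reads in the shared bases were assigned.

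Enterocyte markers were counted because APOA4 is an intestinal gene. Of 10 markers 6 were tested, and SI rose (0.81, from 0.632 to 1.86 FPKM) while LCT, CDX2, ALPI and FABP1 fell, the first 3 called lower. The filter fixed the direction of SI, under 1 FPKM in every sh-NC library. It also fixed that of ALPI, under 1 FPKM in every sh-CLGN library (mean 0.546 FPKM). Their summed level was 197 to 232 FPKM with sh-NC and 126 to 128 FPKM with sh-CLGN, most of it FABP1 (means of 129 and 76.2 FPKM), which hepatocytes also express, and MUC2 was at 0 in all libraries. The part of these markers in the APOA4 result was not tested.

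APOB fell, against the rises of APOE and APOA2. It measured 252, 286 and 313 FPKM with sh-NC and 209, 230 and 243 FPKM with sh-CLGN. The sh-CLGN libraries were all lower, although the highest of them came close to the lowest sh-NC library. The mean went from 284 ± 30.9 to 227 ± 17.2 FPKM (SD, n = 3 each), a log2 change of -0.32 (SE 0.090, 95% interval -0.53 to -0.11, adjusted p = 0.0143). Before scaling the groups were not apart, with 52101 to 71922 reads in sh-NC against 52488 to 58088 in sh-CLGN. The fall depended on the scaling, being -0.12 with read totals (adjusted p = 0.269) and 0.026 with quantile normalization (adjusted p = 0.837).

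APOE, the ligand through which the liver takes up remnant particles, rose most in absolute level. It measured 530, 539 and 451 FPKM with sh-NC and 760, 744 and 752 FPKM with sh-CLGN. Every sh-CLGN library exceeded every sh-NC library. The mean rose from 507 ± 48.5 to 752 ± 8.13 FPKM (SD, n = 3 each), a ratio of 1.48 and a log2 change of 0.57 (SE 0.074, 95% interval 0.40 to 0.74, adjusted p = 0.000276).

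Macrophages are another source of APOE and APOC1 in liver. Of 11 macrophage markers only CD14 and LYZ were tested, and both fell (-0.62 and -0.19 on the log2 scale, adjusted p = 0.00121 and 0.0262). CD14 was under 1 FPKM in every sh-CLGN library (mean 0.524 FPKM), so the filter fixed its direction. The summed level of the markers was 70.4 to 78.2 FPKM with sh-NC and 62.2 to 69.1 FPKM with sh-CLGN, nearly all of it LYZ. The defining markers CD163, C1QA, C1QB and C1QC were at 0 in all 6 libraries, PTPRC, CD68, CSF1R and TYROBP were at most 0.478 FPKM in any library, and MARCO was higher in every sh-CLGN library (means of 0.296 and 0.555 FPKM). The part of these markers in the APOE and APOC1 results was not tested.

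The small C apolipoproteins had small changes in FPKM, whose size depended on the scaling. APOC1, which restrains lipid transfer and the uptake of remnants, measured 117, 106 and 107 FPKM with sh-NC and 128, 128 and 115 FPKM with sh-CLGN. The groups overlapped, since the highest sh-NC library exceeded the lowest sh-CLGN library, and the rise of 0.17 (SE 0.063, adjusted p = 0.0432) was at the edge of the threshold. It no longer passed without sh-NC replicate 2 (adjusted p = 0.125), sh-NC replicate 3 (0.0881), sh-CLGN replicate 1 (0.136) or sh-CLGN replicate 2 (0.147). Other scalings gave a larger rise that passed, at 0.30 with TPM, 0.36 with read totals, 0.40 with the GC trend removed and 0.49 with quantile normalization (adjusted p = 0.000114). The unnamed transcript AC011481.3, which has the same strand and overlaps 43.2% of the APOC1 exon bases, had 12 to 35 reads against 1901 to 2682 for APOC1. Since the counting of reads in the shared bases is not given, these counts cannot show whether the APOC1 level is understated.

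APOC3, an inhibitor of lipoprotein lipase, measured 97.6, 94.5 and 79.3 FPKM with sh-NC and 90.6, 98.2 and 93.1 FPKM with sh-CLGN. The groups overlapped fully, and the change was 0.059 (SE 0.080, 95% interval -0.13 to 0.25, adjusted p = 0.543). Its sign turned to -0.032 without sh-NC replicate 3, whereas 3 scalings (quantile, read totals and removal of a GC trend) gave a rise that passed, the largest 0.36. APOC2, the activator of lipoprotein lipase, was too low to test, at 0.708, 0.208 and 0.491 FPKM with sh-NC and 0.493, 0.371 and 0.612 FPKM with sh-CLGN. These values came from 4 to 13 reads a library, and the groups overlapped. Of its exon bases, 55.4% are shared with the readthrough gene APOC4-APOC2, which had 0 to 5 reads. How reads in shared bases were counted is not given, so the low counts of both genes may be understated.

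APOH, also known as beta-2-glycoprotein I, binds anionic phospholipid and is a target of the antibodies of antiphospholipid syndrome. It measured 58.0, 54.4 and 54.8 FPKM with sh-NC and 48.2, 45.4 and 44.7 FPKM with sh-CLGN. The groups did not overlap, and the change was -0.27 (SE 0.051, 95% interval -0.39 to -0.15, adjusted p = 0.00207). As for APOB, the fall depended on the scaling, being -0.077 with read totals (adjusted p = 0.216) and 0.023 with quantile normalization (adjusted p = 0.682), and the unscaled reads overlapped, at 1058 to 1129 and 961 to 1090.

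**Figure D2:**
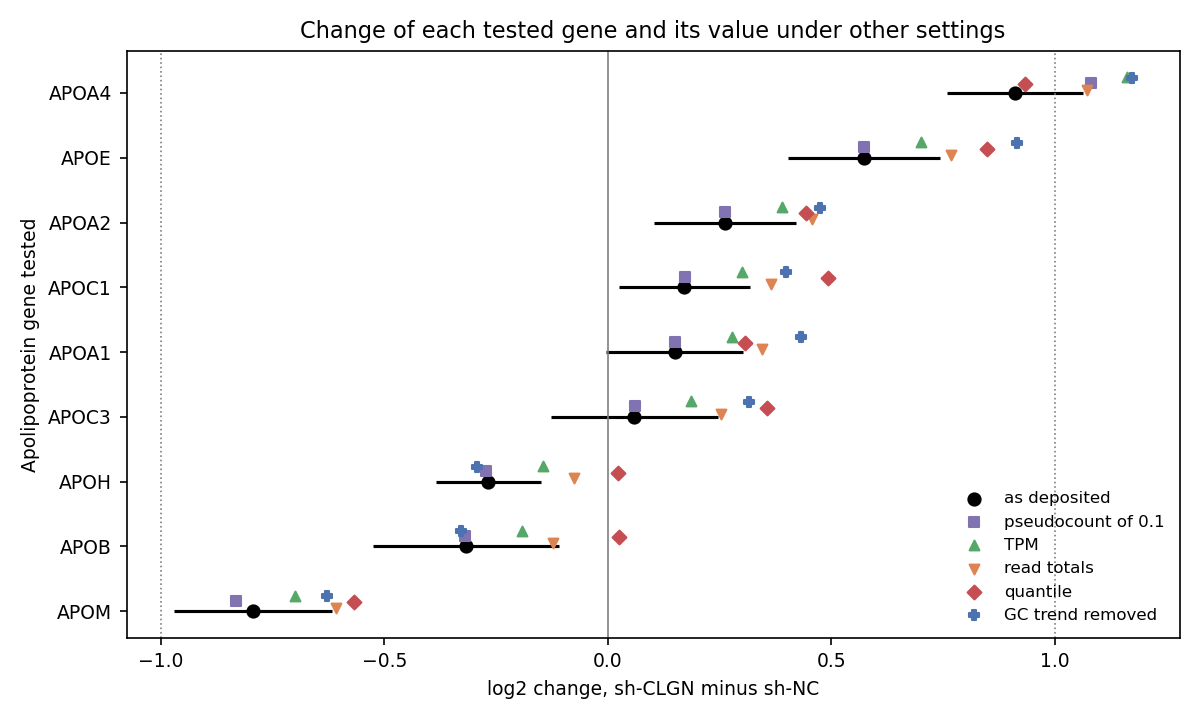
Log2 change (sh-CLGN minus sh-NC, on the log2(FPKM + 1) scale) of the 9 tested apolipoprotein genes with 95% intervals, together with the change under 5 alternatives (markers as in the key), and dotted lines at -1 and 1. APOA4 at 0.91, APOE at 0.57 and APOM at -0.79 stayed on their side of 0 throughout, while APOB and APOH reached 0.026 and 0.023 with quantile normalization.

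The rises of APOA4 and APOE and the fall of APOM passed the adjusted p in all 12 alternatives and without each of the 6 libraries in turn. The 12 are not separate checks. No filter, protein-coding genes, no trend, robust eBayes and the replicate block left these log2 changes as they were, and median-ratio scaling nearly so. Over the 12 alternatives APOA4 ran from 0.91 to 1.17, APOE from 0.57 to 0.92 and APOM from -0.84 to -0.57. Scaling by TPM or by read totals raised the median change of all genes by 0.11 and 0.16 log2 units, which bears on small changes such as those of APOA1, APOC1 and APOC3. The longest transcripts of APOE and APOA4 have a GC content of 68.5% and 61.0%, and those of APOB and APOH 43.5% and 42.9%. With the GC trend across genes removed, the changes were 0.92 for APOE, 1.17 for APOA4, -0.33 for APOB and -0.29 for APOH. In bulk RNA, fewer cells with a transcript and less of it per cell cannot be told apart.

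The 10 genes together measured 2716, 2742 and 2622 FPKM with sh-NC and 3272, 3070 and 3059 FPKM with sh-CLGN. Every sh-CLGN library was higher, with means of 2693 ± 63.5 and 3134 ± 120 FPKM (SD, n = 3 each), a ratio of 1.16. The two-sided exact permutation test over libraries gave p = 0.1, the smallest that 3 against 3 allows. As a share of all reads they took 0.713% ± 0.0385 in sh-NC against 0.813% ± 0.00671 in sh-CLGN, also without overlap (exact permutation p = 0.1).

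Shares within this sum do not depend on a single factor for each library. They can change with quantile normalization or removal of a GC trend. Since the sum was higher with sh-CLGN, a smaller share is not by itself a fall in level. APOE made up 19.5%, 19.7% and 17.2% of the sum in sh-NC against 23.2%, 24.2% and 24.6% in sh-CLGN. The share of APOB was 9.27%, 10.4% and 11.96% in sh-NC against 6.38%, 7.50% and 7.93% in sh-CLGN. The groups were apart for both, APOE gaining and APOB losing part of the sum. They were apart for 3 more genes: the mean share of APOH went from 2.07% to 1.47%, that of APOM from 0.926% to 0.445%, and that of APOA4 from 0.120% to 0.223%. For each of these 5 genes the exact permutation test gave p = 0.1, its smallest value, and 0.2 after adjustment over the 10 shares. APOA1 (30.1% and 28.7%), APOA2 (30.0% and 30.9%), APOC1, APOC3 and APOC2 overlapped between the groups.

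**Figure D3:**
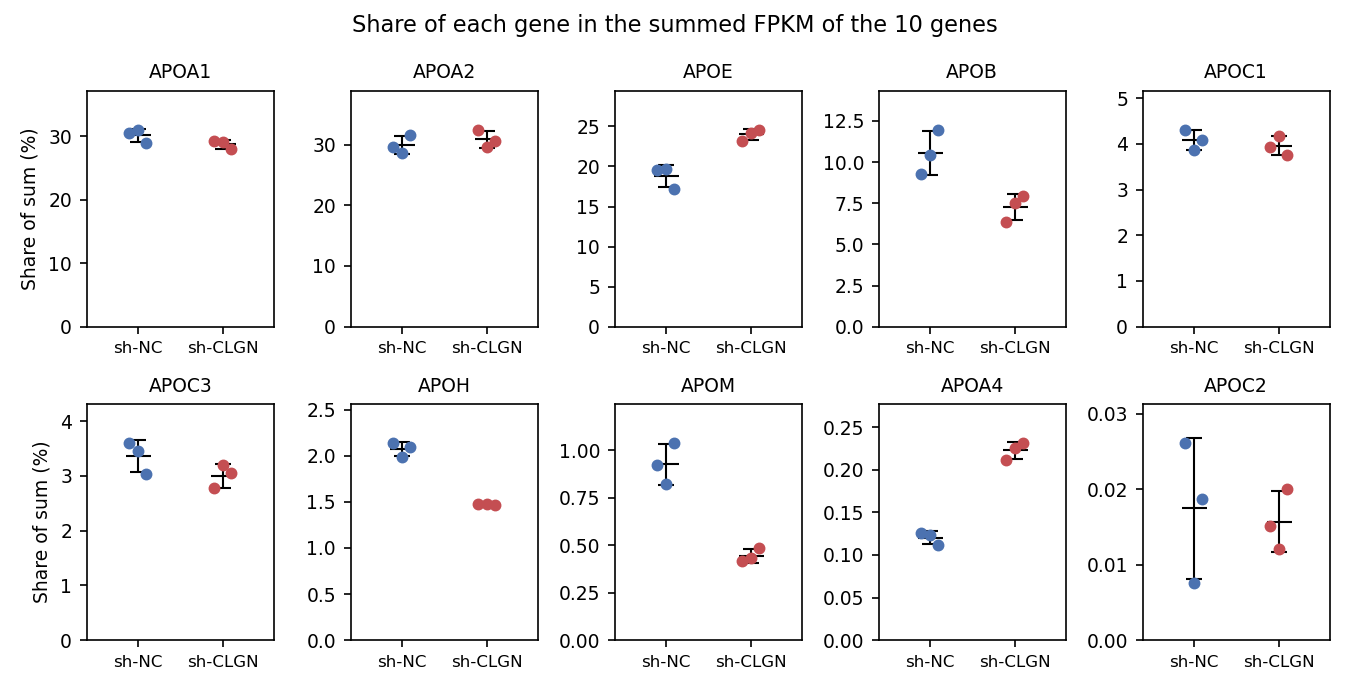
Share of each apolipoprotein gene in the summed FPKM of the 10 genes, in percent, with a point per library and the mean with SD for sh-NC (blue) and sh-CLGN (red); each panel has its own axis from 0. APOE and APOA4 took a larger share in all sh-CLGN libraries and APOB, APOH and APOM a smaller one.

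Within the gene clusters, some ratios between neighbours separated the groups. In the chromosome 11 cluster the log2 ratio of APOA4 to APOA1 was -7.92, -7.97 and -8.01 in sh-NC against -7.11, -7.01 and -6.92 in sh-CLGN, a difference of 0.96. The ratio of APOA4 to APOC3 differed by 1.05, and both ratios were apart in the groups. The ratio of APOC3 to APOA1 overlapped, with a difference of -0.090 (exact permutation p = 0.4). In the chromosome 19 cluster the ratio of APOC1 to APOE was lower in every sh-CLGN library, by 0.40 log2 units on average (-2.20 ± 0.139 and -2.60 ± 0.0918, SD, n = 3 each). The 3 ratios that were apart had an exact permutation p = 0.1, which adjusted over the 6 ratios gave 0.2. The ratios of APOC2 to APOE and to APOC1 overlapped.

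Genes around the apolipoproteins were compared as their genomic setting. Of 31 tested genes that start within 100000 bases of an apolipoprotein gene or cluster, 5 rose and 18 fell. Around the chromosome 19 cluster 5 of 7 fell and 0 rose, including TOMM40, the mitochondrial import gene nearest to APOE, at -0.79 (adjusted p = 0.000108), so APOE rose beside a neighbour that fell. On the other side the nearest tested gene, AC011481.1, was at 0.30 (adjusted p = 0.186). Next to the chromosome 11 cluster APOA5, which lowers plasma triglyceride, rose by 0.55 (adjusted p = 0.00398), while ZPR1 and BUD13 beyond it fell slightly. APOA5 was under 1 FPKM in every sh-NC library (means of 0.848 and 1.72 FPKM), so the filter fixed its direction. The same holds for LY6G5C near APOM (means of 0.407 and 1.18 FPKM), also among the genes that rose. TOMM40L beside APOA2 fell (-0.69) where APOA2 rose, and 2 of 9 tested genes around it rose and 7 fell. Near APOM, PRRC2A fell by 0.60 on the log2 scale and C6orf47 was at 0.099 (adjusted p = 0.297), with 2 of 11 higher and 3 lower. PRKCA beside APOH was at -0.25 (adjusted p = 0.0119), and no tested gene started within that distance of APOB.

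**Figure D4:**
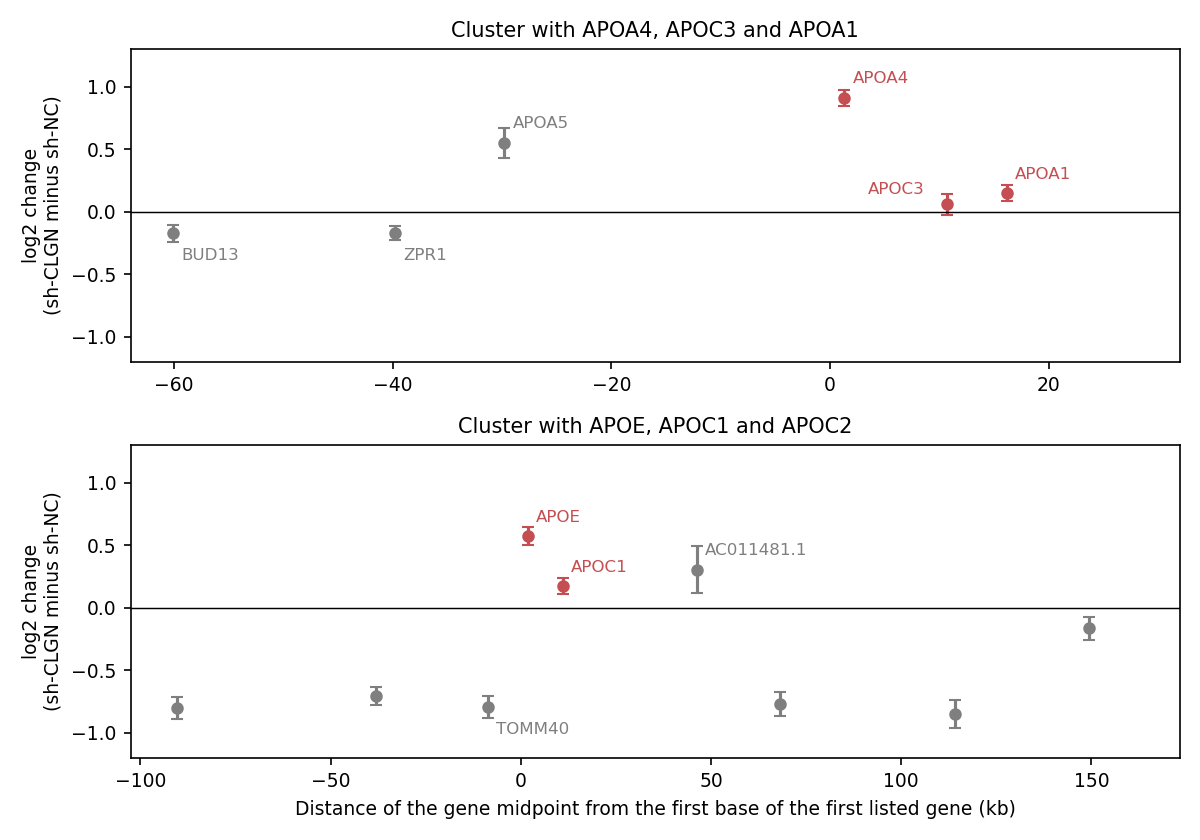
Log2 change of the tested genes in and around the chromosome 11 and chromosome 19 clusters against their distance, in kilobases, with apolipoprotein genes of the 10 in red and neighbours in grey, and bars for the SE. APOE at 0.57 stands above TOMM40 at -0.79, and APOA4 at 0.91 lies farther from 0 than APOC3 at 0.059 and APOA1 at 0.15.

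The genes closest in pattern to the mean of the 9 tested apolipoproteins, among 4584 genes with a mean of at least 10 FPKM over the 6 libraries, were TMEM59, UBE2Z, GOLM1, EXOSC6 and H2AFY2. Their root mean square distance was 0.017 to 0.022 on the log2 scale, and since rises and falls cancel in that mean, they are genes that changed little (log2 changes from 0.043 to 0.098, none past the adjusted p).

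The wider lipoprotein pathway was counted by role. Of 18 genes with other apolipoprotein names or for other proteins of lipoprotein particles, 9 were tested, 6 rose and 1 fell, with a median of 0.53. Not all of these names mark proteins of plasma particles. APOL6 (0.73), which is interferon-inducible, APOL2 (0.45) and the acute-phase protein SAA2 (0.63) had the smallest adjusted p. APOL6 and APOL2 are both intracellular members of the APOL family. The gene that fell was CLU, the chaperone clusterin, at -0.38 (adjusted p = 0.00283), and under quantile normalization 0 fell. The genes that rose were low, none above 12.4 FPKM on average, and for APOA5 among them the filter fixed the direction.

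Particle assembly and secretion held 20 tested genes of 22, of which 6 rose and 10 fell (median -0.16). MTTP, the transfer protein that loads lipid onto APOB, rose from 34.6 ± 3.54 to 86.0 ± 1.41 FPKM (SD, n = 3 each; log2 change 1.29, adjusted p = 5.43e-06) and was the 1 gene of the list called higher. The 3 called lower were ACSL3, which activates fatty acids (-1.16), the lipid droplet coat protein PLIN2 (-1.05) and the deacetylase AADAC (-1.15). MTTP and APOB, whose products act together in the lumen of the endoplasmic reticulum, went in opposite directions in the deposited FPKM. The APOB fall did not pass with TPM (-0.19), with read totals (-0.12) or without the filter. With quantile normalization APOB was at 0.026.

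Enzymes and inhibitors that remodel particles held 14 tested genes of 19, with 6 higher and 5 lower (median 0.15). BMP1, a protease that cleaves pro-APOA1, rose from 3.49 ± 0.327 to 10.2 ± 0.778 FPKM (SD, n = 3 each; log2 change 1.32, adjusted p = 7.19e-06) and was among the 2 called higher. The proprotein convertase FURIN was called lower (-1.25), and PCSK6 (-0.92), PCOLCE2 (-0.99), PLTP (-0.53) and LMF1 (-0.59) fell. LMF1 was under 1 FPKM in every sh-CLGN library (mean 0.854 FPKM), so the filter fixed its direction.

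Lipoprotein receptors and their controls leaned lower, with 12 of 17 tested genes (of 21) lower and 2 higher (median -0.44). VLDLR, a receptor for triglyceride-rich particles, went from 4.05 ± 0.202 to 1.69 ± 0.0498 FPKM (SD, n = 3 each; log2 change -0.91, adjusted p = 1.85e-05), and 2 genes of the list were called lower. The ubiquitin ligase MYLIP (0.48) and the endocytic receptor LRP2 (0.25) rose.

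Transcription factors and other regulators of apolipoprotein genes showed the most one-sided counts of the 6 other lists, with 22 of 29 tested genes (of 32) lower and 1 higher (median -0.44). SREBF2 (-0.87) and SREBF1 (-1.43), master regulators of sterol and fatty acid genes, and the liver factor FOXA2 (-0.97) had the smallest adjusted p. SREBF1 and the nuclear receptor NR0B2 (-1.33) were the 2 called lower, and the gene that rose was NR2F1 (0.62). HNF4A, a central activator of apolipoprotein genes in liver, went from 63.8 ± 3.05 to 51.7 ± 2.19 FPKM (SD, n = 3 each; log2 change -0.30, adjusted p = 0.00185), and CEBPA was at -0.79. HNF4A and CEBPA were not followed under other scalings. The HNF4A change is near in size to those of APOB (-0.32) and APOH (-0.27), which depended on the scaling. The count of those that rose was 3 with read totals, with quantile normalization and after removal of the GC trend, and that of those that fell 18 to 20. APOBEC1, the editing enzyme of APOB messenger RNA, was at 0 in all libraries.

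Other genes for secreted liver proteins were taken for comparison, and 15 of 24 tested (of 28) fell and 6 rose (median -0.36), or 10 and 10 under quantile normalization. The iron carrier TF (-1.62), the vitamin D carrier GC (-2.37) and the copper carrier CP (-1.34) had the smallest adjusted p, and with F2 (-1.21) and HP (-1.22) they were the 5 called lower. ALB fell from 2007 ± 70.9 to 1076 ± 27.7 FPKM (SD, n = 3 each; adjusted p = 7.88e-06). The 6 that rose were HPX (0.82), FGB (0.72), TTR (0.58), AFP (0.50), AHSG (0.46) and FGG (0.34), none of them called.

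**Figure D5:**
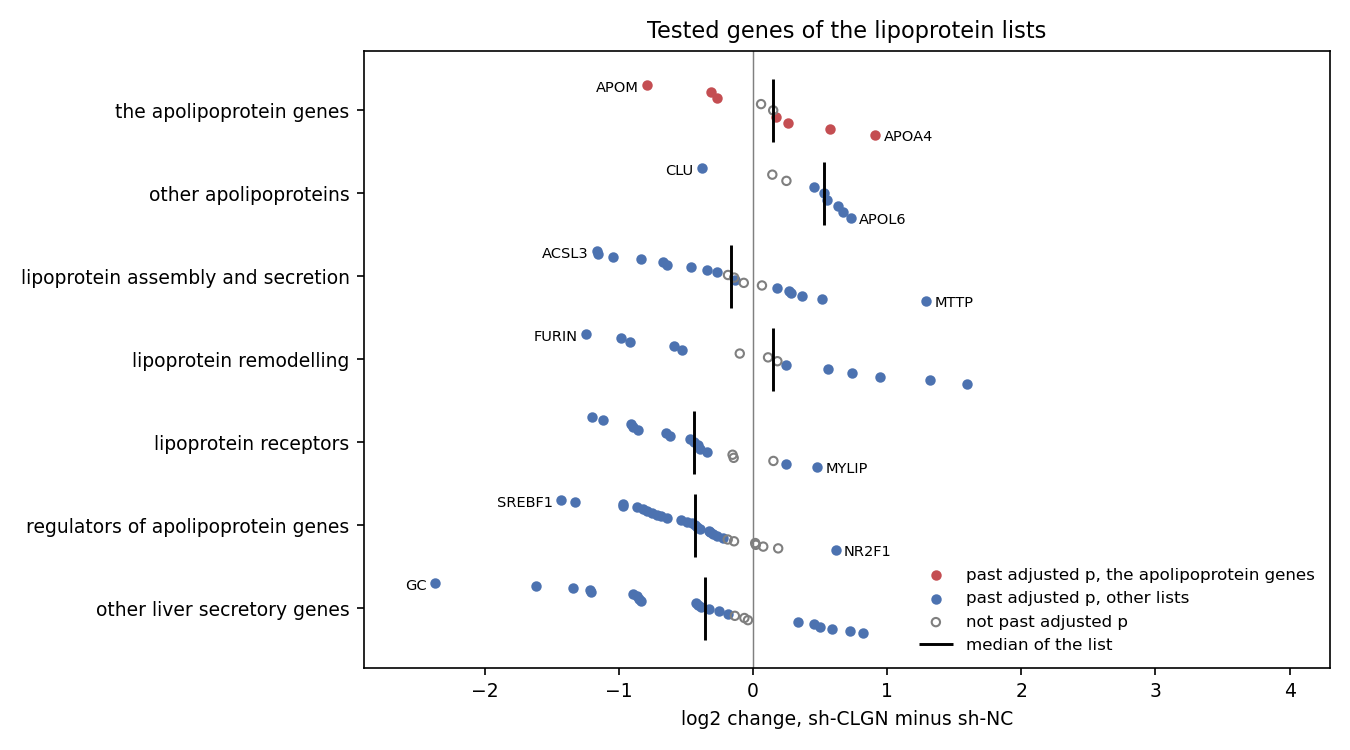
Log2 change of each tested gene in 7 lists, with filled points for genes past the adjusted p (red for the 10 apolipoprotein genes, blue for the other lists), open points for the rest, and a bar at the median of each list. The receptor, regulator and secretory lists lie mostly left of 0, the apolipoproteins and other apolipoproteins mostly right of it, and MTTP is far right in a list of mixed direction.

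The labelled cell type was checked against markers. All 10 hepatocyte identity markers were tested, at a summed 6660 to 6861 FPKM with sh-NC and 6589 to 6966 FPKM with sh-CLGN, with 3 higher and 6 lower. These close sums hold opposite changes, since mean AFP rose from 2670 to 3782 FPKM and mean ALB fell from 2007 to 1076 FPKM. Of 11 fibroblast and stellate cell markers 6 were tested and all 6 rose, 5 of them called. TAGLN, COL1A1, COL3A1 and LUM were under 1 FPKM in every sh-NC library, so the filter fixed their direction. The summed level was 7.65 to 9.20 FPKM with sh-NC and 64.8 to 66.9 FPKM with sh-CLGN. Most of the sh-CLGN sum was COL1A2 (means of 4.20 and 38.7 FPKM) and TAGLN (0.495 and 16.4 FPKM). POSTN was at 0 in all libraries, and DCN, THY1 and ACTA2 were at most 0.104 FPKM in any library. PDGFRA, not tested, was higher in every sh-CLGN library (means of 0.420 and 0.951 FPKM). Of 7 cholangiocyte markers 4 were tested, with 2 higher and 2 lower, at a summed 153 to 159 and 113 to 120 FPKM. Of 6 bone, neural and adipose markers 1 was tested and did not pass. The part of the fibroblast and cholangiocyte markers in the apolipoprotein changes was not tested.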

How the data were processed

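RNA of 6 Hep-G2 libraries (3 sh-NC, 3 sh-CLGN) was prepared with a NEBNext Ultra kit per the labels. The submitters' processing notes name HISAT2 2.0.5, featureCounts and GRCh38. The sources used here do not give the use of strand in counting, the treatment of overlapping genes, or the culture behind each library. The authors deposited FPKM per gene and library, with gene positions and lengths. The positions of all 58735 genes equalled GENCODE 29, and the lengths of the 10 apolipoprotein genes equalled their summed exons. FPKM corrects for length and for a factor of each library, and this factor did not follow the read totals. In sh-NC replicate 3, the library with the most reads, 1 read on 1 kb counted 0.0646 FPKM. In sh-CLGN it counted 0.0589 to 0.0619 FPKM. Median-ratio size factors gave nearly the same changes as the deposited values (0.572666 and 0.572673 for APOE), whereas scaling by read totals did not.

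Groups were taken from the sample titles. log2(FPKM + 1) values of genes that reached 1 FPKM in 3 or more libraries were fitted in limma 3.58.1 (R 4.3.3) with an intensity trend, and p-values were adjusted by Benjamini-Hochberg over 13074 genes; the fit was tested on simulated data. Intervals are at 95%. Sums, shares and ratios were compared with two-sided exact permutation tests over libraries. FPKM times length gave whole reads for 100% of values (tolerance 0.01), which were used for read counts and for voom as an alternative. Depth was 14955816 to 16244639 reads a library, and the part of counting error in the spread between libraries was not tested. Other alternatives were a pseudocount of 0.1, no filter, protein-coding genes, TPM, median-ratio, quantile and read-total scaling, removal of a GC trend (lowess span 0.3), limma without trend, robust eBayes, each library left out in turn, and a block for the replicate number. Figures were drawn with matplotlib 3.10.9 in Python 3.11.15.

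The members and the gene lists were chosen with earlier results of these data known. All 10 apolipoprotein genes are named, with the 3 genes of smallest adjusted p in each other list, every gene where a count was 5 or fewer (except in the marker lists and the farther neighbours), the nearest tested neighbours and the 5 genes of most similar profile (mean of at least 10 FPKM). HNF4A, CEBPA, ALB, AFP, TTR, FGB, FGG, AHSG, HPX, LY6G5C, ZPR1 and BUD13 were named after their values were seen. So were the fibroblast markers other than POSTN. Some genes that this rule selects are not reported here.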

Additional observations from a re-analysis of the deposited data

How the results depend on the processing

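The count of 0 apolipoprotein genes called higher became 1, APOA4, with a pseudocount of 0.1, TPM, read totals, the GC trend removed and voom, and stayed 0 in the other alternatives. Genes called over the whole table numbered 821, and 1606 with a pseudocount of 0.1, 1426 with TPM and 1722 with voom. Of the called genes 404 were higher and 417 lower, against 1002 and 424 with TPM, 605 and 235 with read totals and 484 and 241 with the GC trend removed. Apolipoprotein genes that rose numbered 2 without the filter in place of 4. Those that fell numbered 1 in place of 3 with quantile normalization and with read totals. APOB (0.026) and APOH (0.023) changed sign with quantile normalization. Without the filter APOA2 (adjusted p = 0.0959), APOC1 (0.109) and APOB (0.0638) did not pass. APOB also missed with TPM (0.130), and APOC1 without the trend (0.069). APOA1 rose with TPM, quantile normalization, read totals, the GC trend removed and voom. In each of these APOA4, APOE, APOA2 and APOC1 rose too. APOC3 also rose with quantile normalization, read totals and the GC trend removed, so more apolipoprotein genes rose there than the 4 of the main fit. For these the cause was not tested.

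Leaving out single libraries moved the log2 change of APOC3 from -0.032 to 0.12, the log2 change of the APOC2 share from -0.51 to 0.26 (0.0055 without sh-CLGN replicate 2), and the difference in the log2 ratio of APOC2 to APOC1 from -0.44 to 0.37 (-0.19 without sh-CLGN replicate 3). The counts of apolipoprotein genes called or past the adjusted p stayed within 1.5 times in each of these. Of 162 apolipoprotein gene results under the alternatives, 139 kept their direction and side of the threshold, and of 590 for other named genes 565 did. Same-numbered libraries of the groups did not deviate together (correlations -0.018, -0.046 and -0.15). Whether equal numbers mark a common culture or preparation is not given, and these correlations cannot decide it. With the replicate number as a block 3 apolipoprotein genes rose and 3 fell, 821 genes were called, and APOC1 was at an adjusted p of 0.0502. APOC2 had only 4 to 13 reads a library.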
